A study of Mus musculus with 8 samples.

Results

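Deletion of the autophagy gene Atg7 in stromal cells of the estradiol-treated mouse uterus was examined in 4 of the 8 libraries of the series: 2 labelled as control and 2 labelled as Atg7-deleted. The controls carried floxed Atg7 (Atg7f/f) and the others the deleted form (Atg7d/d), which the series ascribes to Cre recombinase expressed from the Amhr2 locus (Amhr2cre) in the mesenchyme of the uterus. Both groups were of a mixed background given as C57BL/6-ICR, came from females whose ovaries had been taken out (OVX), so that their own estrogen supply was low, and had received estradiol (E2), the main ovarian estrogen. The other 4 libraries hold the same genotypes after injection of oil, and serve here as the background for the deletion effect without estradiol. Their cell type marker levels differed from those of the estradiol libraries, as given below. The labels give no age, estradiol dose, time after injection or method of cell separation, and do not say whether the libraries of a group came from separate animals, so the p-values below measure the spread between libraries, which may be technical. Of 23238 gene symbols, 13347 had enough reads to be tested.

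Autophagy carries cytoplasm and organelles to the lysosome inside a membrane that is sealed with lipid-bound proteins of the LC3 and GABARAP families. Atg7 is the E1-like enzyme that activates these proteins and Atg12 for conjugation, and without it the autophagosome membrane does not mature normally. In the ovariectomized uterus estradiol brings on water uptake, opening of small vessels, cell division and the output of stromal growth factors that act on the epithelium above. The comparison asks what loss of Atg7 in the mesenchyme does to the stromal transcriptome in that estrogen-driven state.

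No single gene separated Atg7-deleted from control stroma after estradiol once the p-values were adjusted for 13347 tests in the fit of all 8 libraries, but several gene groups stood on the same side in most of their members. Cell cycle genes stood lower with deletion in all 37 tested members (median log2 fold change -0.47), and genes of cholesterol synthesis in 22 of 24 (median -0.31). Genes of the extracellular matrix stood higher in 34 of 45 (median 0.16), and macrophage markers in 12 of 15 (median 0.55). These last medians were 0.07 at the lowest for matrix genes and 0.14 for macrophage markers when 1 estradiol library was left out. Other lists also leaned to 1 side. Epithelium markers stood lower in 19 of 22 (median -0.39) and estrogen targets known from the epithelium in 13 of 15 (median -0.42). Genes of the unfolded protein response stood lower in 23 of 26 (median -0.16). The epithelium median was -0.01 without control library 2. Over all tested genes 6387 stood higher and 6956 lower, with a median of -0.01. The lists were chosen with earlier results of these data known, so their directions are not independent evidence. All fold changes are deleted minus control on the log2 scale, with the standard error of the fit after the ± sign, and levels are CPM, counts scaled to a common library size.

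The edgeR quasi-likelihood test called 0 genes higher (0%) and 0 lower (0%) at an adjusted p below 0.05, with a smallest adjusted p of 1. At an unadjusted p below 0.05, 403 genes passed (3.02% of those tested), 214 higher (1.60%) and 189 lower (1.42%). DESeq2 called 0 genes, with 155 higher and 122 lower at an unadjusted p below 0.05, and limma voom called 0, with 210 and 187. Under DESeq2 the smallest adjusted p was 0.0605. An edgeR fit of the 4 estradiol libraries alone with the replicate number as a block, added after seeing the data, did make calls, 120 genes higher and 66 lower, on 1 residual degree of freedom and with a number that the labels do not tie to a shared animal or day. The levels of the 2 groups did not overlap for 2139 genes higher (16.0%) and 2428 lower (18.2%) with deletion, 4567 in all (34.2%), and 498 genes (3.73%) differed at least 2-fold in the fit. These shares are the background against which each count of members below is to be read. The median 95% confidence interval reached 0.53 on the log2 scale to either side, that is 1.45-fold. It was taken over the 8868 genes with a mean of at least 10 CPM and is not adjusted for the number of tests. Smaller differences were not detectable for a typical gene. Larger ones were not called after adjustment either, so the 0 calls do not exclude them.

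The 4 estradiol libraries were close to each other in depth and in overall expression. Totals were 6951080 and 6590780 reads in control libraries 1 and 2, and 5458390 and 6035061 in deleted libraries 1 and 2. Across genes, which are not independent replicates, the correlation of log2 levels was 0.975 between the control libraries and 0.978 between the deleted ones, and 0.969 to 0.979 between genotypes. Fibroblast markers, which define the labelled cell type, were all 16 tested, and their summed level was 8947 and 6348 CPM in control and 9283 and 8531 CPM in deleted stroma. Markers of other cells were present in both groups: summed smooth muscle markers ranged from 10159 to 13075 CPM, epithelium markers from 2104 to 4949, endothelium markers from 2583 to 3155, and macrophage markers from 343 to 606. The control library 2 held the highest epithelial and the lowest fibroblast sum of the 4. The oil libraries differed in these sums: epithelium markers stood at 19048 and 6581 CPM in control and 11868 and 5167 in deleted stroma. Fibroblast markers stood at 2221 and 2708 CPM against 2673 and 3309 in oil. Comparisons of estradiol with oil below are thus also between libraries of unlike marker content, and the part of this was not tested. In such bulk libraries fewer cells of a type and less RNA per cell cannot be told apart.

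**Figure D1:**
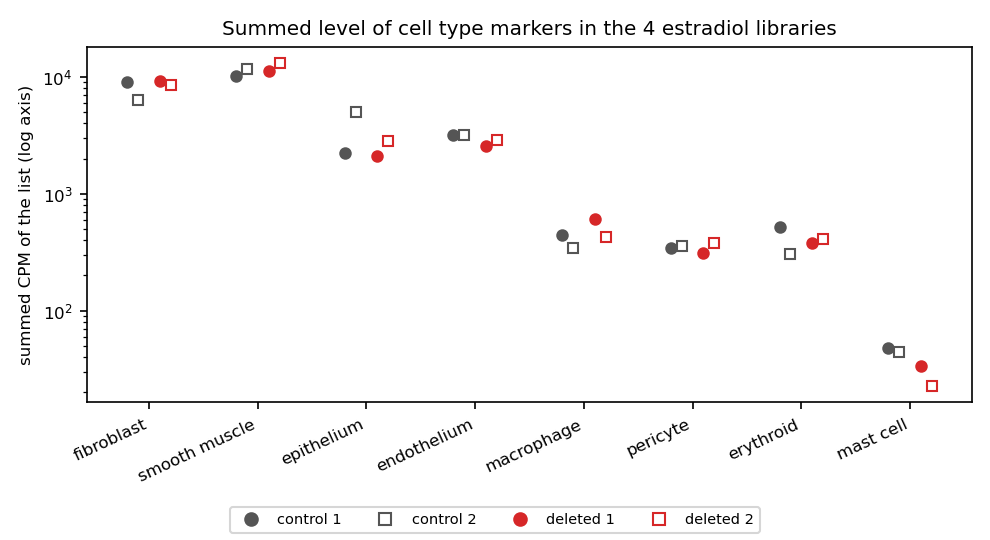
Summed CPM (log axis) of the tested and untested members of 8 cell type marker lists in the 4 estradiol libraries, control in grey and Atg7-deleted in red. The deleted libraries lie below both controls for endothelium and mast cell markers, and within or across the control range for epithelium and fibroblast markers.

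Atg7 itself (chromosome 6, 114643097 to 114860614, plus strand, mm10) had 20 and 23 reads in control and 23 and 22 in deleted stroma. The log2 fold change was 0.28 ± 0.44, with a 95% interval of -0.70 to 1.27. Because reads come from transcript 3′ ends, loss of an inner exon goes unseen while that end is still transcribed, and these counts do not check the labels. For Amhr2, whose locus expresses the Cre, 2 and 8 reads were found in control and 3 and 0 in deleted stroma. None of the 19 tested neighbours of Atg7 on the chromosome passed an unadjusted p of 0.05, and their median was -0.02 (0.01 when scaled by library totals).

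**Figure D2:**
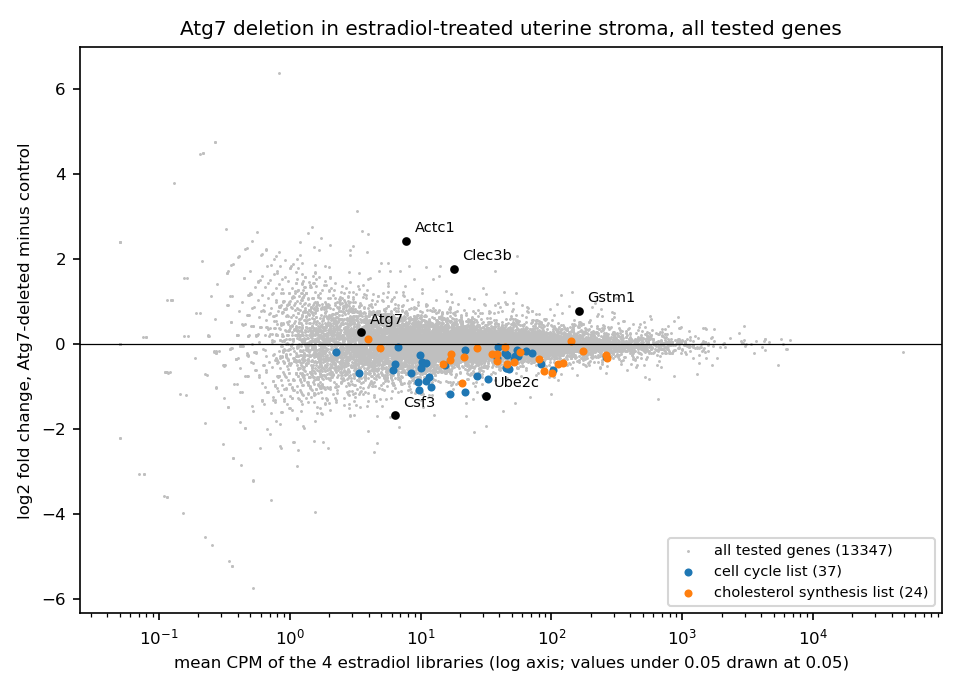
Log2 fold change of each tested gene (deleted minus control) against its mean CPM over the 4 estradiol libraries (log axis), with cell cycle genes in blue and cholesterol synthesis genes in orange. All 37 blue points and 22 of 24 orange points lie below 0, within the cloud of all 13347 genes.

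The 10 genes with the smallest p-values in the upward direction at a mean of at least 5 CPM did not pass adjustment (edgeR adjusted p = 1 for each). Actc1 (chromosome 2, 114047282 to 114053548, minus strand), the cardiac form of muscle actin, stood at 1.96 and 2.92 CPM in control and 11.9 and 14.4 in deleted stroma. The groups lay far apart, with a log2 fold change of 2.43 ± 0.39 and the smallest unadjusted p of all genes, 0.000143. In oil Actc1 stood at 1.58 and 2.12 CPM in control and 0.948 and 1.42 in deleted stroma, and its deletion effects in the 2 treatments differed by 3.06 ± 0.62 (unadjusted p = 0.000798). Gstm1 (chromosome 3, 108012255 to 108017973, minus strand), a glutathione transferase of the detoxifying system, stood at 124 and 113 CPM in control and 201 and 208 in deleted stroma, a difference of 0.79 ± 0.16. Gstm1 belongs to a family of close copies, so the assignment of its reads is uncertain. Clec3b (chromosome 9, 123150946 to 123157432, plus strand), which encodes the plasminogen-binding protein tetranectin, stood at 10.2 and 5.99 CPM against 38.3 and 17.3, which did not overlap. Clec3b and Actc1 had the smallest adjusted p-values under DESeq2, 0.0605 for both.

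The other genes of the upper 10 were Draxin, C1ra, Rps4l, Cybb, Saa3, Wnt5b and Scara5. Draxin, a secreted guidance protein that also antagonises Wnt signalling, stood at 2.37 and 1.84 CPM in control and 7.92 and 7.93 in deleted stroma. The complement protease C1ra stood at 48.1 and 56.1 CPM against 90.9 and 88.3. Cybb, the catalytic subunit of the phagocyte NADPH oxidase, stood at 5.87 and 6.92 CPM against 23.4 and 13.6. Saa3, an acute phase protein made by stroma and macrophages, stood at 22.8 and 11.5 CPM against 48.4 and 65.3. In none of these 4 did the groups overlap, which the choice of the 10 genes by small p-values nearly fixed. Wnt5b, a ligand of the Wnt family, was 1.19 ± 0.27 higher, and Scara5, a ferritin receptor, 1.71 ± 0.40 higher. Rps4l, a paralog of a ribosomal protein gene whose reads may be shared with its relatives, was 1.05 ± 0.23 higher. Gstm1, C1ra, Clec3b, Cybb, Saa3, Wnt5b and Scara5 were also higher with deletion in oil, without overlap, against 12.9% of all genes. Gstm1, for example, stood there at 358 and 357 CPM in control and 433 and 446 in deleted stroma. Draxin overlapped in oil, and Rps4l was lower there, like Actc1.

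The 10 genes with the smallest p-values in the downward direction did not pass adjustment either. Ube2c (chromosome 2, 164769898 to 164778822, plus strand) is the ubiquitin-conjugating enzyme of the anaphase-promoting complex, Hjurp the chaperone that loads the centromeric histone, Cenpf a kinetochore protein and Ccna2 a cyclin of S phase and mitosis. Ube2c stood at 37.6 and 50.3 CPM in control and 14.9 and 22.8 in deleted stroma, a log2 fold change of -1.21 ± 0.26 (unadjusted p = 0.00123, edgeR adjusted p = 1). Hjurp stood at 36.2 and 30.9 CPM against 17.5 and 22.0, Cenpf at 22.3 and 24.3 against 7.92 and 12.8, and Ccna2 at 34.9 and 32.3 against 19.6 and 20.2. Both deleted libraries were below both controls for each of them, which their choice by small p-values nearly fixed.

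The remaining 6 were Paox, Csf3, Cxcl5, Hspa1b, Rcsd1 and Wscd1. Paox (chromosome 7, 140115799 to 140137224, plus strand), a peroxisomal oxidase of polyamines, stood at 25.6 and 38.7 CPM in control and 12.2 and 12.3 in deleted stroma, a difference of -1.39 ± 0.32. In oil Paox stood on the other side, at 5.05 and 7.97 CPM in control and 14.5 and 9.61 in deleted stroma, and the 2 effects differed by -2.28 ± 0.47 (unadjusted p = 0.000895, edgeR adjusted p = 1). The neutrophil growth factor Csf3 stood at 8.10 and 11.2 CPM against 3.42 and 2.59, and the neutrophil chemokine Cxcl5 at 26.3 and 44.7 against 15.3 and 13.7. Rcsd1, an actin-capping regulator, was 1.17 ± 0.34 lower and Wscd1 0.89 ± 0.26 lower. Of the 10 downward genes Csf3, Hspa1b, Hjurp and Wscd1 were also lower with deletion in oil, without overlap, against 11.6% of all genes. Ube2c was higher there, like Paox, and Cxcl5, Cenpf, Rcsd1 and Ccna2 overlapped.

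**Figure D3:**
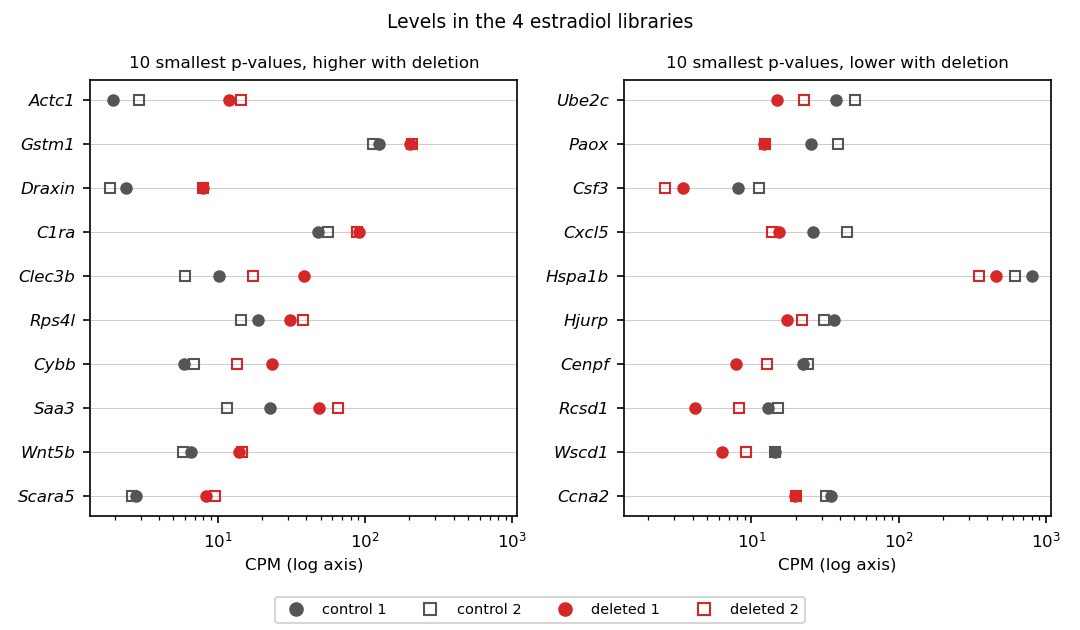
CPM (log axis) in each of the 4 estradiol libraries for the 10 genes with the smallest p-values in each direction, control in grey and Atg7-deleted in red. The red and grey marks do not overlap for any of the 20 genes, which were picked for their small p-values.

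Cell cycle genes were the group with the most uniform direction of the groups named in the summary above. Of 37 tested members 0 stood higher and 37 lower, 13 of them at an unadjusted p below 0.05, against 1.42% of all genes, and for 27 the deleted libraries were below both controls, against 18.2% of all genes. Their summed level was 1482 and 1621 CPM in control and 1075 and 1235 in deleted stroma. Epithelium markers moved to the same side, 19 of 22 lower with a median of -0.39, and their summed level was 2233 and 4949 CPM in control and 2104 and 2822 in deleted stroma. In each genotype library 2 held the higher sum of both lists. Without control library 2 the epithelium median was -0.01 and the cell cycle median -0.50. The part of epithelial RNA in the lower cell cycle levels was not tested. Members of 1 cell cycle program vary together, so the 37 are not independent observations. The list was also chosen with earlier results of these data known. Without control library 2, 34 members stood lower and 5 had an unadjusted p below 0.05, and without deleted library 1 the counts were 36 and 2.

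Plk1, the kinase that drives centrosome and spindle assembly, stood at 25.8 and 34.4 CPM in control and 11.5 and 16.0 in deleted stroma, a difference of -1.13 ± 0.35. Ccnb1, a mitotic cyclin, was 1.09 ± 0.45 lower and the spindle motor Cenpe 1.02 ± 0.36 lower. Cdk1, the kinase that these cyclins activate, stood at 114 and 137 CPM in control and 67.8 and 95.3 in deleted stroma, a difference of -0.62 ± 0.22. Top2a, which untangles replicated DNA, stood at 88.1 and 104 CPM against 62.6 and 75.9, a difference of -0.47 ± 0.20. The proliferation antigen gene Mki67 stood at 15.5 and 20.7 CPM against 9.90 and 15.7, and here the groups overlapped. Ccnd1, the cyclin of the growth factor response, was at -0.30 ± 0.29. Ccne1, the cyclin of the G1 to S step, was at -0.08 ± 0.33 and E2f1, a transcription factor of that step, at -0.08 ± 0.20.

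In oil the same list stood mostly on the other side, with a median of 0.29, and the median of the difference between the 2 deletion effects was -0.58. The 2 comparisons share no library, though the fit gives both the same estimate of the spread for each gene. Levels in oil were low: Cdk1 stood at 8.83 and 7.08 CPM in control and 14.5 and 16.5 in deleted stroma. Its deletion effect differed between the treatments by -1.58 ± 0.33 (unadjusted p = 0.00103, edgeR adjusted p = 1), that of Top2a by -1.21 ± 0.30 (unadjusted p = 0.00282) and that of Ube2c by -1.91 ± 0.41 (unadjusted p = 0.00122). Not all members followed this: Plk1 was at -0.54 ± 0.41 and Ccnd1 at -0.29 ± 0.29 in oil, both on the same side as after estradiol. In oil 4 members had an unadjusted p below 0.05 upward, against 1.51% of all genes, and 0 downward.

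**Figure D4:**
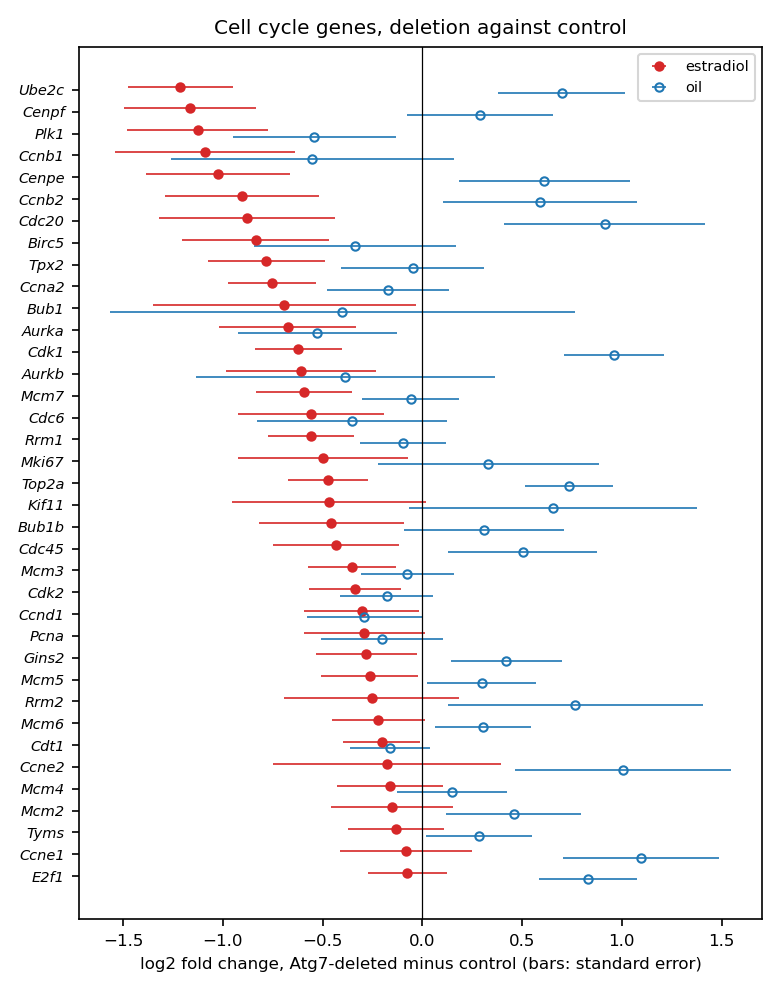
Log2 fold changes (deleted minus control, bars of 1 standard error) of the 37 cell cycle genes after estradiol (red, filled) and in oil (blue, open), sorted by the estradiol value. All 37 red points lie left of 0, from Ube2c at -1.21 to E2f1 at -0.08, and the blue points lie on both sides.

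Promoters of genes expressed in mitosis are known for CCAAT boxes, which bind the factor NF-Y. For 4 members the bases before the transcription start are shown, 5′ to 3′ on the coding strand, because these genes stood lower together. The sequences are from RefSeq (GRCm38.p6), and capitals mark each CCAAT or its reverse complement ATTGG, with adjoining or overlapping matches in 1 run of capitals.
Ube2c, chr2:164769679-164769897, plus strand: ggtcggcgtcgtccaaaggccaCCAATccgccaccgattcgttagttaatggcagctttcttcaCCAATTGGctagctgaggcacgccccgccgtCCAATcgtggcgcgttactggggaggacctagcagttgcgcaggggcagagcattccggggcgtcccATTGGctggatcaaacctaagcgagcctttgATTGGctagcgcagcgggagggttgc
Cenpf, chr1:189688087-189688336, minus strand: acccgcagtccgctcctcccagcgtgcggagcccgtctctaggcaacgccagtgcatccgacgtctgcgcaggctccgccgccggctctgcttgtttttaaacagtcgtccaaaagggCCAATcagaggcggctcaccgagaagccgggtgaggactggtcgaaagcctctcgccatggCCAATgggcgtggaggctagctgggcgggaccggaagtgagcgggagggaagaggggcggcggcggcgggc
Plk1, chr7:122159185-122159434, plus strand: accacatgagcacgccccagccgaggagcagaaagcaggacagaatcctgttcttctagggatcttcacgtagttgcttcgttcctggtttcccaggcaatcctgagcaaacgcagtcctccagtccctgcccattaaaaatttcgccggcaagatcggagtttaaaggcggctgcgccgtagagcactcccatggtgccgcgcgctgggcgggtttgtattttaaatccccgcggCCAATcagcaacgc
Cdk1, chr10:69352939-69353162, minus strand: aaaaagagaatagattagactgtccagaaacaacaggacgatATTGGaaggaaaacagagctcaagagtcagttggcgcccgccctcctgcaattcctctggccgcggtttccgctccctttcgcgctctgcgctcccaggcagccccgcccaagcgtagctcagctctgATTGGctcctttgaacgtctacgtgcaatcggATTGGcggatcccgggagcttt

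Ube2c held 6 matches, of which 2 overlap in the palindrome CCAATTGG, Cenpf held 2, Plk1 1 and Cdk1 3. In the 250 bases before the start, CCAAT on either strand was found in 24 of the 30 cell cycle genes with a RefSeq promoter (80%) and in 37.5% of all 27025 gene symbols with one. The motif TTTGAA or its reverse complement TTCAAA, the core of the CHR element of mitotic promoters, was found in 9 of the 30 and in 18.3% of all symbols, and among the 4 sequences shown in that of Cdk1. The listed genes were all tested here, while all symbols include genes without enough reads to be tested. Shares among the tested genes alone were not computed. The motifs were chosen with the results known, and a match is a description of the letters, not of a bound site.

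Genes of cholesterol synthesis stood lower in 22 of 24, with 2 at an unadjusted p below 0.05, against 1.42% of all genes. For 16 the groups did not overlap, against 18.2% of all genes. The summed level was 1975 and 1999 CPM in control and 1608 and 1575 in deleted stroma. Insig1 (chromosome 5, 28071363 to 28078662, plus strand), the sterol-regulated protein that holds back processing of the SREBP factors, stood at 103 and 113 CPM in control and 63.0 and 74.9 in deleted stroma, a difference of -0.65 ± 0.19 (unadjusted p = 0.00834, edgeR adjusted p = 1). Hmgcs1, a synthase of the mevalonate pathway, stood at 288 and 285 CPM against 254 and 221. In oil the list median was 0.02. The deletion effect on Insig1 differed between the treatments by -0.70 ± 0.27 (unadjusted p = 0.0311). CCAAT was found before the start of 16 of 17 of these genes with a RefSeq promoter (94.1%) and TTTGAA in 1 of the 17.

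Heat shock and endoplasmic reticulum chaperone genes also stood mostly lower. Of 15 heat shock genes 11 stood lower, with a median of -0.13. At an unadjusted p below 0.05 there were 4, against 1.42% of all genes. For 7 the deleted libraries were below both controls, against 18.2% of all genes. Hspa1b, an inducible cytosolic chaperone, stood at 799 and 619 CPM in control and 458 and 348 in deleted stroma, a difference of -0.81 ± 0.22. Hspa1a, its near-identical copy, stood at 1259 and 920 CPM against 786 and 506, and reads of the pair cannot be assigned with certainty. The small chaperone Hspb1 was 0.55 ± 0.20 lower and the co-chaperone Dnajb1 0.68 ± 0.29 lower. Without control library 1, 0 of the 15 had an unadjusted p below 0.05, and the median was -0.31 without control library 2 and -0.06 without deleted library 2.

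Of 26 genes of the unfolded protein response 23 stood lower, with a median of -0.16 and 0 at an unadjusted p below 0.05, and 14 stood lower without control library 1. That median was -0.09 without control library 1 and without deleted library 2, -0.29 without control library 2 and -0.28 without deleted library 1. Pdia4, a disulfide isomerase, was at -0.36 ± 0.20, Creld2 at -0.47 ± 0.27 and Hspa5, the main chaperone of the compartment, at -0.14 ± 0.29. Of 29 immediate early genes, which respond within minutes to growth factors and to tissue handling, 24 stood lower, with a median of -0.23 and 0 at an unadjusted p below 0.05. Egr1 stood at 2229 and 1687 CPM in control and 1731 and 1050 in deleted stroma, with overlap, and Egr2 at 34.2 and 24.4 against 21.4 and 11.8. The medians in oil were -0.34 for heat shock, -0.17 for the unfolded protein response and -0.23 for immediate early genes.

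Matrix genes stood higher in 34 of 45, 5 of them at an unadjusted p below 0.05, against 1.60% of all genes. For 13 the groups did not overlap upward, against 16.0% of all genes. Dcn (chromosome 10, 97479609 to 97518143, plus strand), the collagen-binding proteoglycan decorin, stood at 743 and 707 CPM in control and 1131 and 1102 in deleted stroma, a difference of 0.62 ± 0.18. Fbn1, the microfibril protein fibrillin, stood at 50.3 and 48.1 CPM against 99.3 and 67.6, and Fn1, fibronectin, at 361 and 347 against 520 and 467. Mmp11, a stromal metalloproteinase, was 0.80 ± 0.26 higher. For the abundant collagens the groups overlapped: Col1a2 stood at 2745 and 1685 CPM in control and 2615 and 2299 in deleted stroma, and Col6a3 at 3171 and 2278 against 3287 and 2465. Sparc, a collagen-binding glycoprotein, stood at 4111 and 4095 CPM against 4375 and 4172. The list median was 0.07 without control library 2 and 0.40 without control library 1.

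Of the 16 fibroblast markers 12 stood higher, 3 at an unadjusted p below 0.05, against 1.60% of all genes. Their median was 0.26 after estradiol and 0.38 in oil. Mfap5, a microfibril protein, stood at 59.2 and 36.9 CPM in control and 101 and 64.4 in deleted stroma. Pi16, which marks adventitial fibroblasts, stood at 20.8 and 25.4 CPM against 36.7 and 32.5. Dpt, dermatopontin, was at 0.34 ± 0.18 after estradiol and 0.72 ± 0.18 in oil. The median after estradiol was 0.03 without control library 2, 0.15 without deleted library 1 and 0.52 without control library 1.

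Among the autophagy genes themselves few had small p-values. Of 15 tested genes of the conjugation machinery 10 stood higher and 5 lower, with a median of 0.06 and 0 at an unadjusted p below 0.05. Map1lc3b, which encodes LC3B, stood at 152 and 169 CPM in control and 159 and 166 in deleted stroma, with a 95% interval of the log2 fold change of -0.36 to 0.40. The LC3 relative Gabarapl1 stood at 612 and 708 CPM against 709 and 679. Of 22 initiation and nucleation genes 1 had an unadjusted p below 0.05: Ambra1, which positions the Beclin complex, at 16.5 and 27.5 CPM in control and 40.3 and 32.5 in deleted stroma.

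Among the 14 tested cargo receptors 6 stood higher and 8 lower. Sqstm1, which encodes the receptor p62, a protein that accumulates when autophagy is blocked, stood at 397 and 384 CPM in control and 366 and 423 in deleted stroma, a log2 fold change of 0.02 ± 0.17 with an interval of -0.37 to 0.40. RNA levels do not report the amount of the protein. Bnip3, a receptor on mitochondria, stood at 11.7 and 9.68 CPM against 15.3 and 18.1, a difference of 0.64 ± 0.25.

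Lysosome genes stood higher in 28 of 35, with a median of 0.11 and 1 at an unadjusted p below 0.05. The groups did not overlap for 14 upward, against 16.0% of all genes, and for 5 downward, against 18.2%. Mitf, a transcription factor of the family that controls lysosomal genes, stood at 14.7 and 14.6 CPM in control and 22.1 and 18.8 in deleted stroma, while its relative Tfeb stood at 21.8 and 16.4 against 11.5 and 14.4. Psap, the precursor of the saposins, stood at 597 and 691 CPM against 895 and 746, and the lysosomal membrane gene Laptm4a at 1319 and 1205 against 1822 and 1432. The list median was 0.04 without control library 1 and 0.19 without control library 2. NRF2 targets, which the stress factor NRF2 induces and which p62 can engage through KEAP1, stood higher in 18 of 27 with a median of 0.18. At an unadjusted p below 0.05 there were 2, Gstm1 and Gsta3, against 1.60% of all genes. Gsta3, a glutathione transferase, stood at 0.698 and 1.54 CPM in control and 6.30 and 7.28 in deleted stroma, and its family too holds close copies. The list median was 0.07 without control library 1, with 16 of 27 higher, and 0.10 at a mean of at least 10 CPM. Fth1, the ferritin heavy chain, was at 0.38 ± 0.18, and Gsr, glutathione reductase, at -0.34 ± 0.18.

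Levels of the estrogen and progesterone receptors overlapped between the genotypes. Esr1, the estrogen receptor, stood at 326 and 285 CPM in control and 300 and 332 in deleted stroma, with an interval of -0.33 to 0.43. Pgr, the progesterone receptor, stood at 383 and 338 CPM against 347 and 416. Of 28 stromal estrogen targets 15 stood higher and 13 lower. At an unadjusted p below 0.05 there were 3, all upward, against 1.60% of all genes. Igfbp5 (chromosome 1, 72857932 to 72874884, minus strand), a binding protein of insulin-like growth factors, stood at 146 and 202 CPM in control and 294 and 270 in deleted stroma, a difference of 0.70 ± 0.20. Aldh1a2, which makes retinoic acid, stood at 185 and 105 CPM against 336 and 191. Wnt4, a ligand needed for decidualization, stood at 17.0 and 14.9 CPM against 22.7 and 27.2. Igf1, the growth factor through which stroma drives epithelial division, stood at 742 and 621 CPM against 808 and 791, a difference of 0.23 ± 0.24.

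Estrogen targets known from the epithelium stood lower in 13 of 15, with a median of -0.42 and 8 without overlap, against 18.2% of all genes. The median was -0.27 without control library 2, with 10 of 15 lower, and -0.71 without control library 1. Cfb, a complement factor, stood at 47.1 and 35.7 CPM in control and 10.1 and 25.9 in deleted stroma (-1.20 ± 0.40, unadjusted p = 0.0153). Lcn2, an iron carrier, stood at 183 and 251 CPM against 152 and 153. Ltf, lactoferrin, stood at 99.6 and 188 CPM against 61.2 and 97.5. Sprr2f, a cornified envelope gene, stood at 386 and 1462 CPM against 291 and 461, with overlap. Markers of epithelium, a list that shares Lcn2 and Sprr2f with these targets, moved on the same side. Of these markers 19 of 22 stood lower, median -0.39, with 0 at an unadjusted p below 0.05. The groups did not overlap for 4 downward, which is no more than the 18.2% of all genes, and for 2 upward. None of the 23 listed was at 0 in all 4 libraries, and their summed level was 2233 and 4949 CPM in control and 2104 and 2822 in deleted stroma. Cldn4, a tight junction protein, stood at 305 and 749 CPM against 304 and 440. Without control library 2, 11 of 22 epithelium markers stood lower and their median was -0.01, while it was -0.18 without deleted library 1, -0.68 without deleted library 2 and -0.70 without control library 1. The part of epithelial RNA in the lower levels of these targets was not tested.

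Of 24 vascular permeability genes 17 stood lower with a median of -0.06, which was -0.01 without deleted library 1, -0.04 without control library 2 and -0.10 without either control library 1 or deleted library 2. The upward exception at an unadjusted p below 0.05 was Figf, the gene of the growth factor VEGF-D, at 4.33 and 5.69 CPM in control and 8.10 and 10.5 in deleted stroma. Of 22 endothelium markers 17 stood lower, 12 of them without overlap, against 18.2% of all genes, with a median of -0.17 and a summed level of 3148 and 3155 CPM in control and 2583 and 2866 in deleted stroma. That median was -0.08 without deleted library 1 and -0.29 without deleted library 2. The endothelial junction genes Pecam1, at 379 and 422 CPM against 275 and 344, and Esam, at 506 and 579 against 373 and 491, were among those lower. Vwf, the von Willebrand factor, stood the other way, at 3.35 and 6.92 CPM against 10.8 and 10.2. It was the 1 endothelium marker at an unadjusted p below 0.05, and 0 of the 17 lower ones passed. Of 8 pericyte markers 1 had an unadjusted p below 0.05, Mcam, a cell adhesion molecule, at 49.7 and 46.3 CPM against 32.6 and 32.5.

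Macrophage markers stood higher in 12 of 15, with a median of 0.55 after estradiol and 0.60 in oil, and 8 did not overlap, against 16.0% of all genes. Their summed level was 442 and 343 CPM in control and 606 and 427 in deleted stroma, which overlap, and none of the 16 listed was at 0 in all 4 libraries. Lyz2 (chromosome 10, 117277331 to 117282321, minus strand), the lysozyme of macrophages, stood at 19.8 and 14.9 CPM in control and 56.7 and 29.4 in deleted stroma, a difference of 1.30 ± 0.34. In oil Lyz2 was at -0.62 ± 0.33, and the 2 effects differed by 1.93 ± 0.47 (unadjusted p = 0.00255, edgeR adjusted p = 1). Aif1, a macrophage cytoskeletal protein, stood at 8.38 and 6.92 CPM against 16.4 and 12.8, and the complement chain C1qa at 72.9 and 42.4 against 86.5 and 84.0. Adgre1, which encodes F4/80, stood at 0.978 and 1.38 CPM against 5.04 and 1.46, so that deleted library 1 alone was high. Without deleted library 1 the list median was 0.14 and without control library 2 it was 0.25. Whether macrophage RNA had a part in the higher levels of Cybb and Saa3 was not tested.

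Of 5 tested mast cell markers 5 stood lower, with a summed level over the 8 listed of 47.9 and 44.1 CPM in control and 33.5 and 22.6 in deleted stroma; Fcer1a was at 0 in the 4 libraries. Cma1, a chymase, stood at 3.35 and 5.99 CPM against 2.16 and 1.29, and Hdc, the enzyme that makes histamine, at 23.2 and 21.5 against 14.4 and 8.57. Of 28 interferon response genes 23 stood lower with a median of -0.20, and the median was 0.04 without deleted library 1, -0.05 without control library 2 and -0.36 without deleted library 2. Irf9, a subunit of the interferon-activated complex, was the member at an unadjusted p below 0.05, at 61.6 and 74.4 CPM against 45.5 and 54.7.

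Inflammatory mediators were divided. Of 29 members 14 stood higher and 15 lower. At an unadjusted p below 0.05 there were 4 and 1, against 1.60% and 1.42% of all genes. Ptges, which makes prostaglandin E2, stood at 17.3 and 12.4 CPM in control and 37.6 and 26.0 in deleted stroma, a difference of 1.09 ± 0.26 after estradiol and 0.00 ± 0.26 in oil. Alox15, a lipoxygenase, stood at 15.6 and 23.1 CPM against 42.3 and 44.8, a difference of 1.17 ± 0.33. The list median was -0.05, but 0.04 under limma voom and 0.30 without control library 1. Of 30 Wnt, BMP and FGF ligands and inhibitors 19 stood higher, with a median of 0.29. The groups did not overlap for 10 upward, against 16.0% of all genes, and for 3 downward, against 18.2%. The members at an unadjusted p below 0.05 were Wnt5b, Wnt4 and Bmp2, which is induced in stroma at decidualization (0.51 ± 0.22). The median of this ligand list was 0.09 without control library 2, 0.13 without deleted library 2 and 0.48 without control library 1. The remaining lists had medians close to that of all genes: 0.07 for 27 genes of oxidative phosphorylation, -0.02 for 23 of glycolysis and hypoxia, -0.01 for 20 of progesterone response and decidual stroma (above 0 under library totals and limma voom), 0.06 for 16 steroid receptors and coregulators, and 0.07 for 15 smooth muscle markers. With 1 estradiol library left out the medians of these 5 lists ran from -0.095 to 0.20, and those other than of oxidative phosphorylation fell on both sides of 0.

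**Figure D5:**
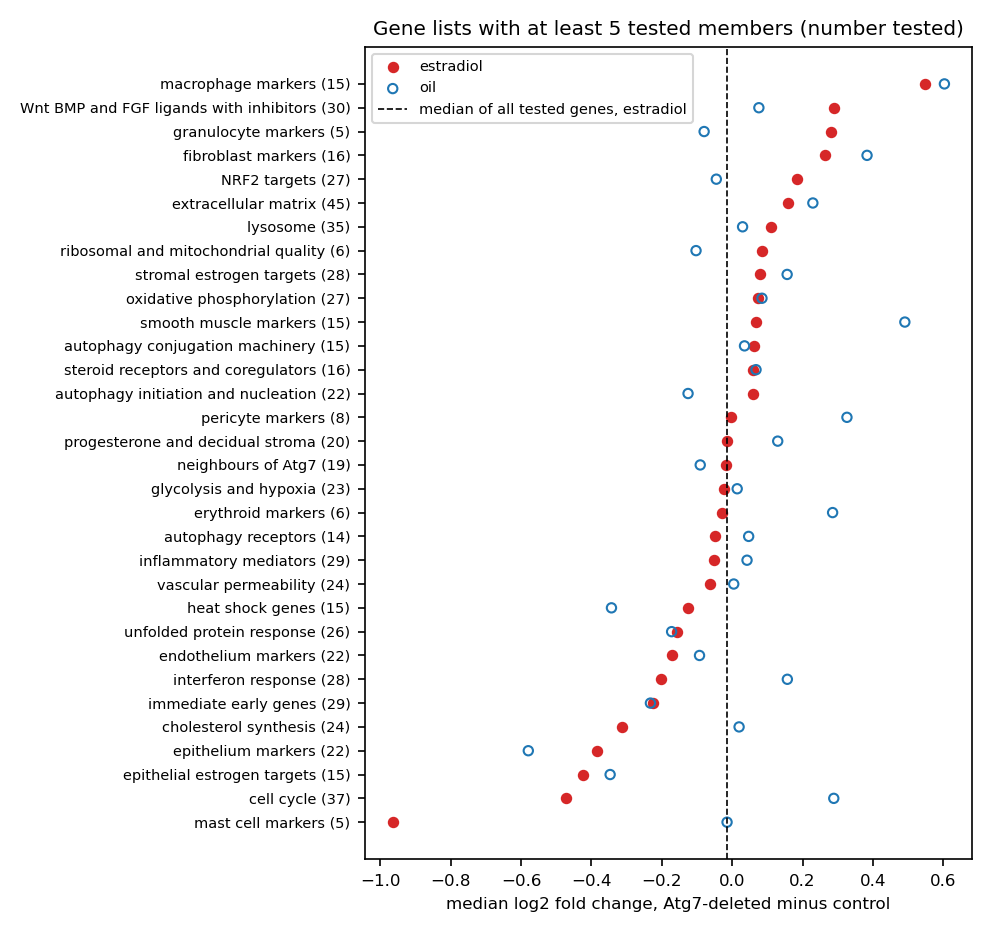
Median log2 fold change (deleted minus control) of each gene list with at least 5 tested members, after estradiol (red, filled) and in oil (blue, open), with the number tested in brackets and the median of all tested genes after estradiol as a dashed line. Mast cell, cell cycle and epithelial lists lie lowest after estradiol and macrophage markers highest; the cell cycle median is -0.47 after estradiol and 0.29 in oil.

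The deletion effect in oil, measured in the same fit, also gave 0 genes higher (0%) and 0 lower (0%) at an adjusted p below 0.05, with 339 genes (2.54%) at an unadjusted p below 0.05, 201 higher (1.51%) and 138 lower (1.03%). Levels did not overlap for 1727 genes higher (12.9%) and 1542 lower (11.6%). The test of the difference between the 2 deletion effects called 0 genes higher (0%) and 0 lower (0%), with 210 (1.57%) at an unadjusted p below 0.05, 92 in the positive direction (0.689%) and 118 in the negative (0.884%). For no gene, then, was the deletion effect shown to differ between estradiol and oil. Across genes, which are not independent, the log2 fold changes of the 2 comparisons had a correlation of 0.143, and 56.5% of genes had the same sign.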

How the data were processed

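RNA was read with QuantSeq libraries from 500 ng of total RNA, per the labels, which sample transcript 3′ ends, so levels were not corrected for length. Raw read counts per gene symbol were deposited, 1 file for each library. Bowtie2, edgeR and build mm10 stand in the submitters' processing notes, and the read counter is not given in the sources used here. Of 23282 lines, 79 belonged to 35 repeated symbols, and of each only the line with the largest sum was used (lines left out held 0.0973% of counts). Library totals ran from 5458390 to 6951080.

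Genes passing filterByExpr (minimum count 10, minimum total 15) were fitted in edgeR 4.0.16 (R 4.3.3) with TMM scaling and a mean for each of 4 groups of 2, and quasi-likelihood tests were adjusted over all 13347 genes by Benjamini and Hochberg at 0.05. The fit had 4 residual and 5.08 prior degrees of freedom and a biological coefficient of variation of 21.8%. DESeq2 1.42.0, limma 3.58.1, other scalings and filters, a replicate block and omission of each library were alternatives. The scripts were tested on simulated data. Same-numbered libraries share only a number in the labels.

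Named genes are the 10 smallest p-values each way at a mean of at least 5 CPM, Atg7, Amhr2, and for each list the members with the smallest p-values or highest levels; a few others were chosen after their values were seen (Ccnb1, Cenpe, Mki67, Ccne1, E2f1, and under other observations Dpep1, Pappa, Rgma, Apod, Edn1, Plaur, Apln, Knstrn, Cyp2j9 and the others listed there). The 36 lists (710 genes, 635 tested) and the comparison were chosen with earlier results of these data known, so their directions are not independent evidence. Lists also share genes, such as Dcn and Col1a2 on the matrix and fibroblast lists. Wnt4 stands among stromal estrogen targets, decidual genes and Wnt ligands. Lists of granulocytes, lymphocytes, erythroid cells, mesothelium, adipocytes, Schwann cells and RNA quality genes had at most 6 tested members and 0 at an unadjusted p below 0.05. Coordinates came from GENCODE M21, in which 12857 tested symbols matched.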

Additional observations from a re-analysis of the deposited data

How the results depend on the processing

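With library totals or median-of-ratios scaling, DESeq2, limma voom, no filter or a filter at 10 CPM, summed lines, the estradiol libraries alone, or any 1 library left out, 0 genes were called in either direction for the deletion effect after estradiol, and likewise for its difference from oil where that could be fitted. A fit of the 4 estradiol libraries alone with the replicate number as a block, chosen after seeing the data, called 120 genes higher and 66 lower; it leaves 1 residual degree of freedom against 23.6 prior ones, and the labels do not say that a number marks a shared animal, litter or day. With the replicate block in the fit of all 8 libraries there were 0 calls, and 254 higher and 214 lower at an unadjusted p below 0.05. Same-numbered control and deleted libraries deviated together (r = 0.230 across genes after estradiol, 0.494 in oil), and with 2 pairs this is a hint from the data, not the design. Across treatments the same measure was -0.231 between the control groups and -0.170 between control estradiol and deleted oil libraries. For deleted estradiol libraries it was -0.026 with control oil and -0.009 with deleted oil. A value of the size of 0.230 thus does not by itself mark a pairing.

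The number of genes at an unadjusted p below 0.05 moved from 214 and 189 to 122 and 79 without deleted estradiol library 1, 329 and 282 without control oil library 1, 327 and 282 without control oil library 2, 408 and 331 with the estradiol libraries alone, and 131 and 102 at a mean of at least 10 CPM. The cell cycle median ranged from -0.62 to -0.39 and its number of lower members from 34 to 37 when 1 library was left out; at a mean of at least 10 CPM the median was -0.33, with 21 of 21 lower. Of 1739 values of named genes under alternatives 1675 kept their direction and side, 49 passed under the estradiol-only block and 15 changed sign, each with 1 library left out. With 1 library left out, Map1lc3b ranged from -0.057 to 0.0987, Gabarapl1 from -0.0332 to 0.181, Col1a2 from -0.162 to 0.540, Col6a3 from -0.149 to 0.332, Sqstm1 from -0.0948 to 0.113, Esr1 from -0.0472 to 0.147, Pgr from -0.0581 to 0.20, E2f1 from -0.214 to 0.0421 and Cldn4 from -1.01 to 0.286. For all 9 the end of opposite sign came without an estradiol library. The cause of these changes was not tested. With 2 libraries a group, fits without 1 library assume that the lone sample varies like the other groups.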

Other observations

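The oil libraries allow a further look at the genes with an unadjusted p below 0.05 after estradiol. The 2 comparisons have no library in common, but the fit gives both the same estimate of the spread for each gene. Small p-values in both are therefore not independent. Of the 403 genes, 268 had the same sign in oil, against 56.5% of all tested genes. At an unadjusted p below 0.05 in the same direction there stood 26, 15 higher and 11 lower. Of all tested genes 1.51% were higher and 1.03% lower in oil at that threshold. Dpep1, a membrane dipeptidase, stood at 1.26 and 1.54 CPM in control and 7.02 and 5.66 in deleted stroma after estradiol, and at 0.158 and 0.177, 1 read in each library, against 1.42 and 1.42 in oil. Pappa, a protease that frees insulin-like growth factors from their binding proteins, stood at 50.7 and 43.6 CPM against 92.7 and 78.1 after estradiol, and at 80.6 and 58.1 against 105 and 101 in oil. Clec3b stood at 98.0 and 83.6 CPM against 176 and 178 in oil, and Rgma, a BMP co-receptor, at 68.8 and 79.7 against 103 and 103. Apod, a lipocalin of connective tissue, was 1.05 ± 0.46 higher after estradiol. Levels of the groups did not overlap for any of these 5 genes in either treatment, which their choice by small p-values in both nearly fixed.

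The 11 genes lower in both treatments were Csf3, Hspa1b, Mgme1, Edn1, Sprr2b, Plaur, Zdhhc13, Apln, Bnipl, Gtse1 and Itch. Edn1, the vasoconstrictor endothelin, stood at 151 and 143 CPM in control and 92.8 and 88.0 in deleted stroma after estradiol, and at 378 and 272 against 241 and 147 in oil. Plaur, the urokinase receptor, stood at 47.5 and 38.3 CPM against 25.7 and 26.9 after estradiol, and at 126 and 97.0 against 71.8 and 41.8 in oil. Apln, the ligand of the apelin receptor, stood at 5.17 and 3.69 CPM against 1.26 and 2.43 after estradiol.

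The 5 genes past an unadjusted p of 0.05 in both treatments with opposite signs were Paox, Cdk1, Top2a, Knstrn and Cyp2j9. Knstrn, a spindle protein, stood at 11.3 and 9.53 CPM in control and 5.04 and 5.98 in deleted stroma after estradiol, and at 0.316 and 0.708 against 1.74 and 2.52 in oil, from 2 to 16 reads in the oil libraries. These genes were noticed in these data, and no edgeR test of the difference passed adjustment for any of them (adjusted p = 1).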
